A study of Homo sapiens with 8 samples.

Results

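Integrins are cell surface receptors made of 1 alpha and 1 beta subunit, and the alpha subunit largely sets which matrix protein is bound. The 10 genes described here, ITGA1, ITGA2, ITGA3, ITGA4, ITGA6, ITGA7, ITGA9, ITGA10, ITGA11 and ITGB4, were listed by name for their ligands, with earlier results of these data known. They encode the subunits of the laminin receptors, the collagen receptors and the α4 and α9 receptors, and are 10 of 58217 genes that had a matched transcript. All 10 were among the 18201 genes tested, although ITGB4 had 4 to 13 counts in a library and passed the low-count filter through Matrigel replicate 2 and VN replicate 1 alone.

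The laminin receptors α3β1, α6β1 and α7β1 attach cells to basement membranes, and α6 also pairs with β4 in the hemidesmosomes of epithelia. In the oligodendrocyte lineage, α6β1 is known as a laminin receptor that supports survival and myelin formation. The collagen receptors carry α1, α2, α10 or α11 with β1, while α4 pairs with β1 or β7 and binds fibronectin and VCAM1, and α9β1 binds tenascin-C, osteopontin, EMILIN1 and SVEP1. Vitronectin is mainly bound by other integrins, those with αV, through its RGD sequence.

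Oligodendrocyte progenitor cells (OPCs) were derived from the established human embryonic stem cell line H9 and kept for 2 days in OPC medium without SOX10 overexpression. The control substrate was Matrigel, a basement membrane extract rich in laminin and collagen IV. The others were recombinant vitronectin (VN) and VNP2, an RGD-containing peptide designed from vitronectin and fused to a mussel adhesive protein, and these 3 substrates were compared in 2, 3 and 3 libraries of polyadenylated RNA. All came from 1 cell line, and nothing in the labels says that the libraries came from separate cultures, so that p-values measure only the spread between these libraries, which may be technical.

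Salmon, a transcript quantifier, had assigned between 37997896 and 39429453 estimated counts to each library. VN replicate 1 stood apart: the median chi-square between its counts and those of the other VN libraries was 2.25 and 2.62, against 0.707 to 1.16 for all other replicate pairs and 0.455 for sampling noise alone. Of 8 OPC markers, OLIG1, OLIG2, NKX2-2, PDGFRA, CSPG4 and PTPRZ1 were tested and all were higher on VNP2 than on Matrigel, as were 7.44% of all genes tested. Of these 6 markers, 3 were higher on VN than on Matrigel (5.66% of all genes) and none lower. On VNP2 against VN, 2 of them were higher (3.1% of all genes) and none lower. SOX10 had 20 counts over the 8 libraries together, none of them on Matrigel. The PTPRZ1 values used did not match the deposited ones, with a largest relative difference in a library of 0.258. Among the other cell types, the summed normalized count of 16 mesenchymal markers was 75856 to 77624 on Matrigel, 61014 to 64317 on VN and 52950 to 54479 on VNP2, with none at 0. Of these markers, 5 were higher and 5 lower on VN than on Matrigel, and 6 were higher and 5 lower on VNP2, where their median log2 fold change was 0.25, so that the sum and the count of markers did not move alike. The sum of 7 epithelial markers was 6877 to 7246 on Matrigel, 3741 to 3924 on VN and 4227 to 4392 on VNP2, with KRT14 at 0 in every library. In the same order, 8 neuronal markers summed to 41267 to 42347, 46497 to 49433 and 51665 to 53148, 7 pluripotency markers to 5965 to 6342, 4891 to 4948 and 4421 to 4676, and 9 endothelial markers to 1718 to 1841, 1717 to 1759 and 1632 to 1643. The sum of 7 neural progenitor markers was 196623 to 200473 on Matrigel, 157896 to 163260 on VN and 169912 to 171298 on VNP2. Of the 6 tested, 1 was higher and 2 lower on VN than on Matrigel, and 3 were higher and 2 lower on VNP2. Of the pluripotency markers, 1 was higher and 1 lower on VN than on Matrigel, and 1 was higher and 4 lower on VNP2. The mesenchymal, epithelial, pluripotency and neural progenitor sums were lower on VN and VNP2 than on Matrigel, as several subunits were. The neuronal sum was higher, and the endothelial sum overlapped between Matrigel and VN. In the neuronal sum, the ELAVL4 values did not match the deposited ones, with a largest relative difference in a library of 0.185. The part of all these cell type markers in the results of the subunits was not tested. In these bulk libraries, fewer cells of a type and less RNA per cell cannot be told apart.

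Across the 3 substrates, 5 of the 10 subunits were called (adjusted p under 0.05 in edgeR's quasi-likelihood test, adjusted by Benjamini-Hochberg over all genes tested), where 19.3% of all genes tested were called. On VN against Matrigel, ITGA1, ITGA3, ITGA4, ITGA7 and ITGA9 were lower and none was higher, against 15.3% of all genes called (5.66% higher and 9.6% lower). That count of 5 was 3 without Matrigel replicate 2, without Matrigel replicate 3 or without VN replicate 3. On VNP2 against Matrigel, ITGA1, ITGA3, ITGA4 and ITGA7 were lower and none was higher, with a background of 16.6% (7.44% higher and 9.13% lower). On VNP2 against VN, ITGA1 and ITGA9 were higher and ITGA4 was lower, with a background of 5.1% (3.1% higher and 2.01% lower). The median log2 fold change of the 10 subunits was −0.25 on VN against Matrigel and −0.38 on VNP2 against Matrigel, while that of all genes tested was within 0.01 of 0. The first 2 comparisons share the Matrigel libraries, and they therefore do not count as separate evidence.

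**Figure D1:**
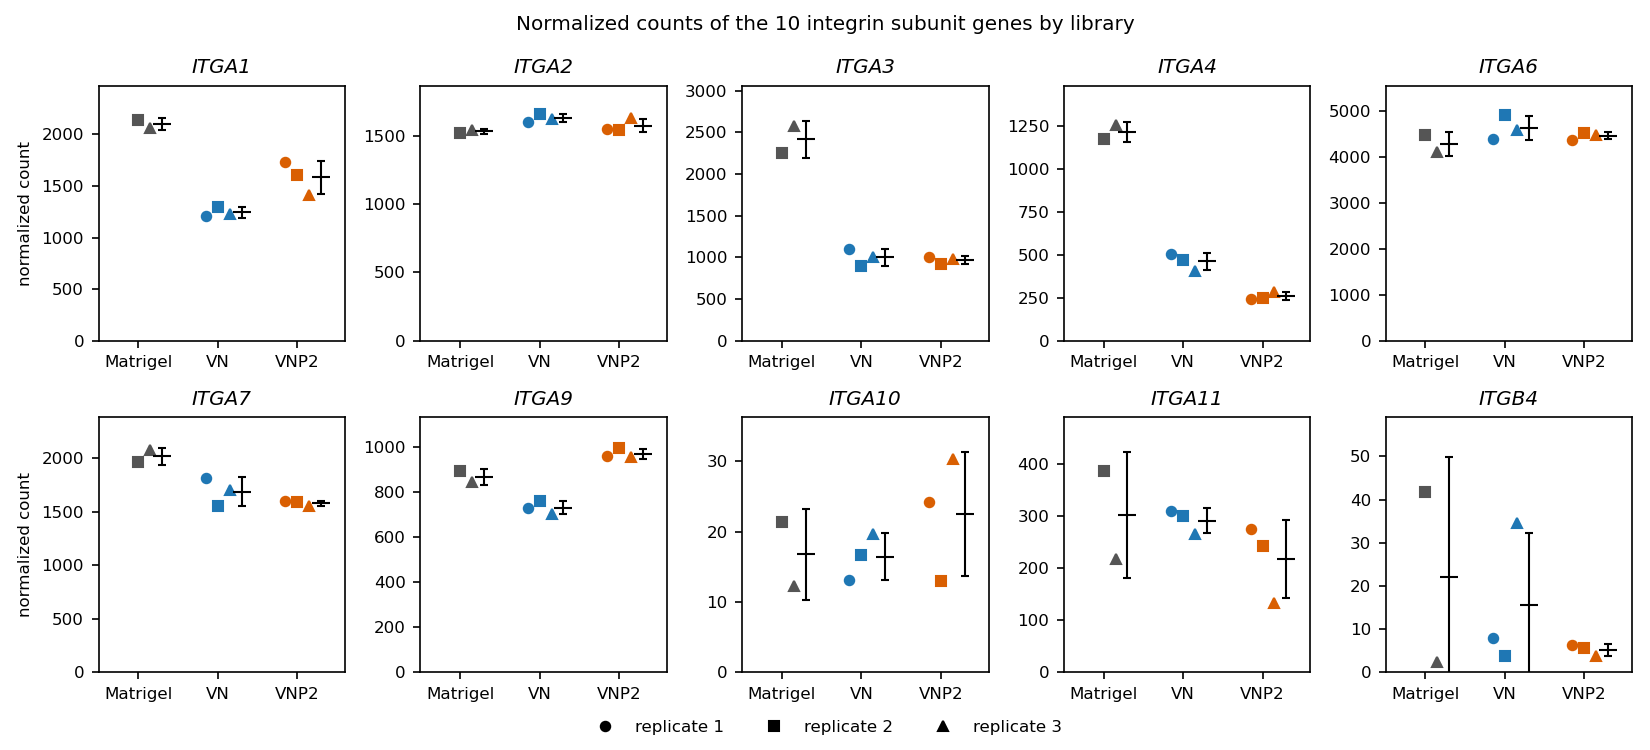
Normalized count (vertical axes, each from 0) of every subunit in each library, by substrate (horizontal axes), with the mean and SD beside the points and the symbol giving the replicate number. The points of ITGA3 and ITGA4 on Matrigel lie far above those on VN and VNP2, the points of ITGA2 and ITGA6 lie at similar heights on all substrates, and ITGA10 and ITGB4 rest on few counts.

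**Figure D2:**
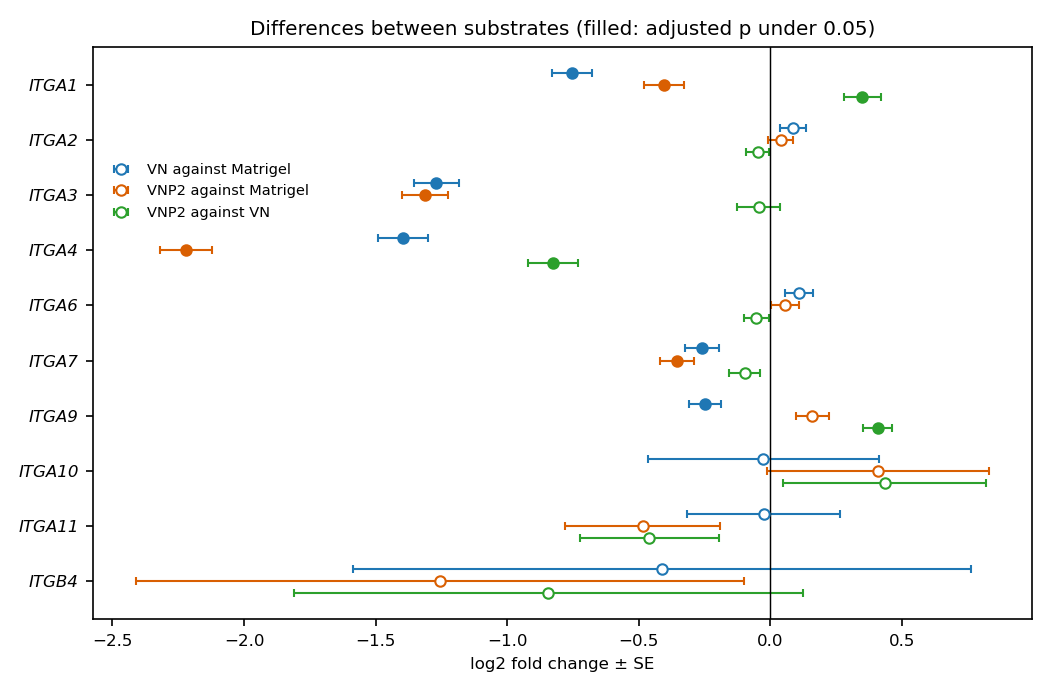
Log2 fold change with its SE (horizontal axis) of each subunit (vertical axis) for the 3 pairs of substrates, with filled points at an adjusted p under 0.05. ITGA4 lies farthest from 0, at −2.22 on VNP2 against Matrigel, and the SEs of ITGA10, ITGA11 and ITGB4 are several times those of the other subunits.

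Compared per length, ITGA6 was the most abundant subunit on every substrate. TPM values are relative abundances corrected for transcript length, and the mean over all libraries was 45.9 TPM for ITGA6, 22.3 for ITGA7, 14.1 for ITGA1, 12.2 for ITGA3, 10.1 for ITGA2, 5.46 for ITGA4, 4.76 for ITGA9, 1.75 for ITGA11, 0.193 for ITGA10 and 0.146 for ITGB4. ITGA6 thus held 39.3% of the summed mean TPM of the 10 genes. Among neighbours in this order, the library values of ITGA6 and ITGA7, ITGA7 and ITGA1, ITGA9 and ITGA11, and ITGA11 and ITGA10 did not overlap, while the other neighbours overlapped. The β1 chain is the partner of all the alpha subunits listed, and ITGB1 was above each of them, at 446 ± 4.61 TPM (SD, n = 2) on Matrigel, followed by 372 ± 12.9 (n = 3) on VN and 369 ± 8.39 (n = 3) on VNP2.

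The order in the middle of this range depended on the substrate. On Matrigel, ITGA3 (21.4 ± 2.11 TPM, SD, n = 2) stood above ITGA1 (18.0 ± 0.407), and ITGA4 (11.2 ± 0.598) above ITGA2 (9.36 ± 0.158), with no overlap between the libraries of either pair. On VNP2, ITGA3 (9.01 ± 0.411 TPM, n = 3) lay below both ITGA1 (14.3 ± 1.39) and ITGA2 (10.1 ± 0.33), and ITGA4 (2.53 ± 0.213) lay below ITGA9 (5.45 ± 0.117). These orders are a description and were not tested.

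**Figure D3:**
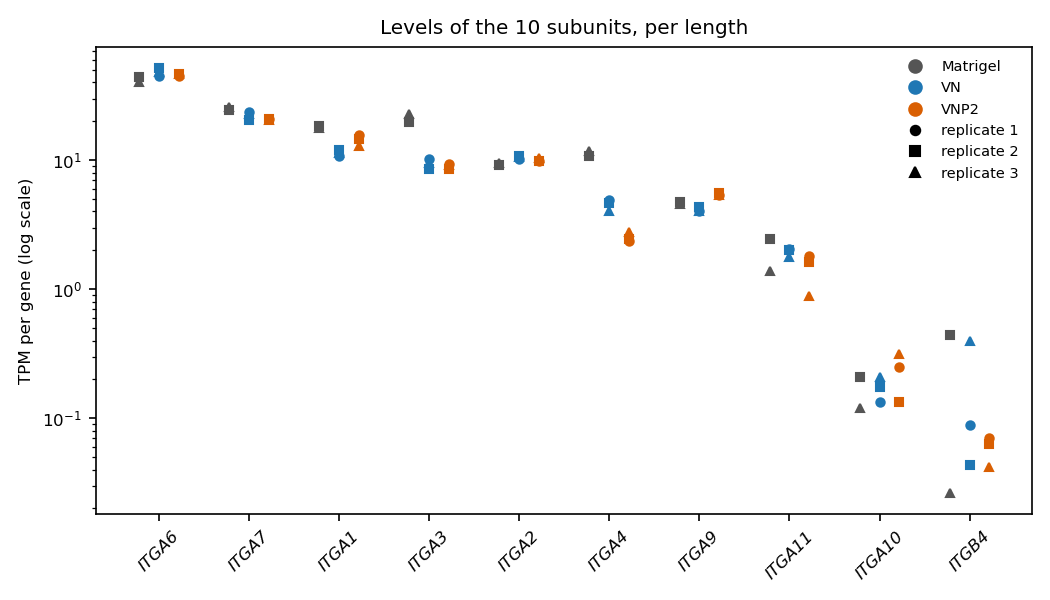
Level of each subunit in TPM per gene (vertical axis, log scale) in every library, with genes ordered by their mean over all libraries, colours giving the substrate and symbols the replicate. ITGA6 lies between 40.5 and 51.5 TPM in all libraries, and ITGA10 and ITGB4 lie below 1 TPM.

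Among the laminin-binding subunits, ITGA3 and ITGA7 were lower on both vitronectin substrates than on Matrigel, while ITGA6 did not pass the test. ITGA3 (ENSG00000005884, chr17:50055968-50090481, plus strand, GRCh38) encodes α3, which binds laminins of basement membranes. Its normalized counts were 2253 and 2574 on Matrigel, compared with 1105, 898 and 1001 on VN and 1009.6, 922 and 982 on VNP2. Every library on VN or VNP2 was below both Matrigel libraries, and the VN and VNP2 libraries overlapped. Libraries did not overlap with Matrigel for 44.4% of all genes on VN and 48.1% on VNP2. The log2 fold change was −1.27 (SE 0.0864) on VN against Matrigel, a 2.41-fold lower level (adjusted p = 6.72e-06), and −1.31 (SE 0.0864) on VNP2 against Matrigel, 2.48-fold lower (adjusted p = 3.55e-06). Between VNP2 and VN it was −0.04 (SE 0.0816, adjusted p = 0.82).

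ITGA7 (ENSG00000135424, chr12:55684568-55716043, minus strand) encodes α7, a receptor for laminins best known from skeletal muscle. It had 1962 and 2073 normalized counts on Matrigel, followed by 1812, 1549 and 1703 on VN and 1597, 1587 and 1553 on VNP2. No library on VN or VNP2 reached the Matrigel libraries, but VN replicate 1 came close. The shares of all genes without overlap are those given for ITGA3. The log2 fold change was −0.26 (SE 0.0647, adjusted p = 0.0231) on VN and −0.35 (SE 0.0647, adjusted p = 0.00385) on VNP2, and −0.10 (SE 0.0587, adjusted p = 0.409) between VNP2 and VN. The call on VN against Matrigel was lost without any 1 of Matrigel replicate 2, Matrigel replicate 3, VN replicate 2 or VN replicate 3 (adjusted p = 0.0548 to 0.175), and that on VNP2 was lost without Matrigel replicate 3 (adjusted p = 0.0525). Of 7 skeletal muscle markers, MYOG and MYF5 were at 0 in all libraries and MYOD1 had 3 counts in total, and the list summed to 133 to 138 normalized counts on Matrigel, 112 to 227 on VN and 79.9 to 117 on VNP2.

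ITGA6 (ENSG00000091409, chr2:172427354-172506282, plus strand) encodes α6, the receptor subunit for several laminins that is also high in pluripotent stem cells. Its normalized counts were 4475 and 4105 on Matrigel, next to 4399.8, 4905 and 4583 on VN and 4377, 4531 and 4483 on VNP2. The libraries of all 3 substrates overlapped. The log2 fold changes were 0.11 (SE 0.0535, adjusted p = 0.2) on VN against Matrigel, 0.06 (SE 0.0535, adjusted p = 0.538) on VNP2 against Matrigel and −0.05 (SE 0.0477, adjusted p = 0.597) on VNP2 against VN. With 4223 to 4842 estimated counts in every library, this gene had one of the smallest SEs of the 10.

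ITGB4 (ENSG00000132470, chr17:75721328-75757818, plus strand) encodes β4, the partner of α6 in hemidesmosomes. It had 11 and 4 estimated counts on Matrigel, compared with 13, 6 and 8 on VN and 10, 9 and 6 on VNP2, too few for a difference to be detectable. The hemidesmosome collagen COL17A1 had 30 counts over all libraries. After correction for length the values were 41.8 and 2.49 normalized counts on Matrigel, followed by 8.03, 3.84 and 34.7 on VN and 6.29, 5.72 and 3.72 on VNP2, because the average effective transcript length assigned to ITGB4 was 1060.3 bases in Matrigel replicate 2 and 925 in VN replicate 3 and 6173 to 6457 in the other libraries.

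The α3, α6 and α7 genes each splice to either of 2 cytoplasmic tails, named A and B, which differ in the last coding exons. The joins are shown here because the reads that cross them tell the forms apart. Each line gives the last 15 bases of the shared exon in lower case and the first 15 bases of the exon that follows in capitals, 5′ to 3′ on the strand of the gene, from the GENCODE v29 transcripts on GRCh38.
ITGA6 A form: tttatactatggaagTGTGGTTTCTTCAAG
ITGA6 B form: tttatactatggaagTGTGGATTCTTTAAA
ITGA3 A form: ctcctgctgtggaagTGCGGCTTCTTCAAG
ITGA3 B form: ctcctgctgtggaagTGTGACTTCTTTAAG
ITGA7 A form: ctgctcctgtggaagTGTGGCTTCTTCCAT
ITGA7 B form: ctgctcctgtggaagATGGGATTCTTCAAA
All 6 joins lie in coding sequence. The shared exon of ITGA6 is chr2:172497975-172498100, followed by chr2:172501772-172501901 in the A form and by chr2:172504091-172506282, which runs on into the 3′ UTR, in the B form. In ITGA3 the shared exon is chr17:50087744-50087869, and the A exon chr17:50088225-50088366 precedes the B exon chr17:50089110-50089729. In ITGA7, on the minus strand, the shared exon chr12:55687971-55688096 is followed by chr12:55686202-55686314 (A) or chr12:55684568-55685288 (B).

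The use of the tails differed between the 3 genes. Of the coding TPM of ITGA3, the A form made up 98.7 to 100% in every library, with 22.3 estimated counts for the B form against 10217 for the A form over all libraries. ITGA7 showed the opposite, with 13172 estimated counts for the B form and 0 for the A form, although the annotation used holds only 1 A transcript, a partial model of 5 exons. ITGA6 had both forms and mainly B. Its A form held 20.2 and 14.2% of coding TPM on Matrigel, next to 12.4, 10.3 and 10.6% on VN and 12.4, 15.9 and 11.8% on VNP2. The Matrigel libraries were above all VN libraries, and 1 VNP2 library lay between them. The means were 17.2 ± 4.27% (SD, n = 2), 11.1 ± 1.11% (n = 3) and 13.4 ± 2.22% (n = 3), and this difference did not pass the test (exact permutation test over all 560 assignments of the libraries, p = 0.0786, adjusted over ITGA3 and ITGA6 p = 0.157, smallest p possible 0.00357). The corresponding exact permutation p for ITGA3 was 0.679, and ITGA7 could not be tested.

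A second splice choice in ITGA7 lies in the extracellular part, where the 132-base exon chr12:55700262-55700393 (X1) or the 120-base exon chr12:55699870-55699989 (X2), and in 1 transcript both, follows the exon chr12:55700899-55701154. This region of α7 is known to affect laminin binding. The joins, shown in the same way as those of the tails, lead from that exon into X1 or directly into X2. ENST00000555728 carries both exons and is counted with the X1 forms.
ITGA7 X1 form: cctataattggaaggGCACGGCCAGGGTGG
ITGA7 X2 form: cctataattggaaggGGTTGCTTTTTGTGA
Transcripts with the X1 exon held 16.8 and 19.1% of the coding TPM of ITGA7 on Matrigel, compared with 7.57, 11.9 and 4.49% on VN and 10.3, 7.34 and 10.7% on VNP2. Both Matrigel libraries were above all others, and the VN and VNP2 libraries overlapped. The group means were 18.0 ± 1.64% (SD, n = 2), 7.98 ± 3.72% (n = 3) and 9.45 ± 1.83% (n = 3). This exon was singled out after its values were seen, and its shares are a description with no test.

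The lower level of ITGA7 was not spread evenly over its transcripts. The most abundant, ENST00000257879, carries X2 and had 1249 and 1256 estimated counts on Matrigel, followed by 1429.8, 1098 and 1329 on VN and 1237, 1329.8 and 1226 on VNP2, so that the groups overlapped. ENST00000347027 also carries X2 and starts 1 of its internal exons 18 bases further on, and it had 311 and 349 counts on Matrigel, next to 199.8, 209.6 and 126 on VN and 154, 78.6 and 128 on VNP2. ENST00000553804, which carries X1, had 251 and 305 counts on Matrigel, compared with 106, 128 and 58.4 on VN and 148, 65.1 and 147 on VNP2. For these less abundant transcripts no library on VN or VNP2 reached the Matrigel libraries. Salmon shares reads among transcripts that differ this little, so the split between them is an estimate, and like the X1 shares it was examined after the values were seen.

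**Figure D4:**
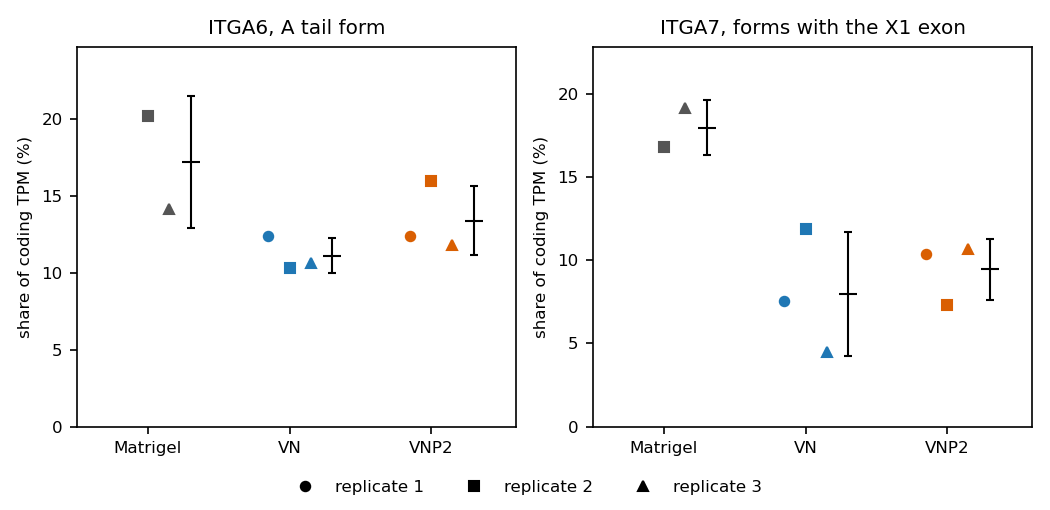
Share of coding TPM (vertical axes, in percent, from 0) held by the A tail form of ITGA6 and by the X1 forms of ITGA7 in each library, by substrate, with the mean and SD beside the points. The A form of ITGA6 overlaps between Matrigel and VNP2, while the X1 share of ITGA7 is 16.8 and 19.1% on Matrigel and at most 11.9% in any other library.

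Among the collagen-binding subunits, ITGA1 was lower on both vitronectin substrates, and it was the only one of the 4 that passed the test. ITGA1 (ENSG00000213949, chr5:52787896-52959210, plus strand) encodes α1, which binds collagen IV and other collagens as well as laminin. Its normalized counts were 2138 and 2056 on Matrigel, followed by 1206, 1299.7 and 1226 on VN and 1731, 1610.1 and 1415 on VNP2. The 3 groups did not overlap, with Matrigel highest and VN lowest, where the VNP2 and VN libraries of 23.6% of all genes did not overlap. Against Matrigel that share was 44.4% on VN and 48.1% on VNP2. ITGA1 fell by 0.75 on the log2 scale (SE 0.0772, adjusted p = 0.000118) on VN against Matrigel, a 1.69-fold difference, and by 0.40 (SE 0.0766, adjusted p = 0.00465) on VNP2 against Matrigel, a 1.32-fold difference. It was 1.27-fold higher on VNP2 than on VN, with a log2 fold change of 0.35 (SE 0.0705, adjusted p = 0.0177).

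These ITGA1 values rest on 1 transcript, ENST00000650673, which the annotation used here lacks. It was assigned to ITGA1 because the sum then equals the gene's deposited value in all 8 libraries. Without it, the summed estimated counts of the other ITGA1 transcripts were 0.165 of the summed deposited values. With those other transcripts alone, the log2 fold changes were −0.82 on VN (adjusted p = 0.00907) and −0.76 on VNP2 (adjusted p = 0.0114) against Matrigel, and 0.06 (adjusted p = 0.875) on VNP2 against VN. The last difference was also lost without VN replicate 3, VNP2 replicate 1 or VNP2 replicate 2 (adjusted p = 0.0601 to 0.0669), and that between VNP2 and Matrigel without Matrigel replicate 2 (adjusted p = 0.0538). PELO, a gene inside ITGA1 on the same strand, whose reads may not be fully separable from it, had log2 fold changes of −0.36 (adjusted p = 0.0182) on VN and −0.24 (adjusted p = 0.0909) on VNP2 against Matrigel.

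ITGA2 (ENSG00000164171, chr5:52989326-53094779, plus strand) encodes α2, a receptor for fibrillar collagens. It had 1517 and 1543 normalized counts on Matrigel, next to 1597, 1655 and 1623 on VN and 1547, 1544 and 1626 on VNP2. Both Matrigel libraries were below all others, only just so for VNP2 replicate 2, and such a lack of overlap was seen for 44.4% of all genes on VN and 48.1% on VNP2. The log2 fold changes of 0.09 (SE 0.0487, adjusted p = 0.266) on VN, 0.04 (SE 0.0488, adjusted p = 0.655) on VNP2 and −0.05 (SE 0.0434, adjusted p = 0.601) between VNP2 and VN did not pass the test.

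ITGA10 (ENSG00000143127, chr1:145891208-145910189, minus strand) encodes α10, known from cartilage. Its estimated counts were 22 and 14 on Matrigel, compared with 13, 14 and 17 on VN and 25, 16 and 28 on VNP2. The groups overlapped, with log2 fold changes of −0.03 (SE 0.439, adjusted p = 0.977) on VN and 0.41 (SE 0.423, adjusted p = 0.585) on VNP2 against Matrigel, and differences of this size are not detectable at this depth.

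ITGA11 (ENSG00000137809, chr15:68296533-68432162, minus strand) encodes α11, a receptor for fibrillar collagens found on mesenchymal cells. Its result depended on how transcript length was handled. The estimated counts were 275 and 271 on Matrigel, followed by 319, 277 and 268 on VN and 217, 217 and 216 on VNP2, so that all VNP2 libraries were below all others. After correction for depth and length, the normalized counts were 386 and 216 on Matrigel, next to 309, 299 and 264 on VN and 274, 243 and 132 on VNP2, which overlap. With the correction, the log2 fold changes were −0.02 (SE 0.291, adjusted p = 0.967) on VN against Matrigel, −0.48 (SE 0.295, adjusted p = 0.321) on VNP2 against Matrigel and −0.46 (SE 0.264, adjusted p = 0.379) on VNP2 against VN. Without it, ITGA11 was lower on VNP2 than on Matrigel, with a log2 fold change of −0.38 (adjusted p = 0.0151), and lower than on VN, at −0.43 (adjusted p = 0.0116).

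The average effective length of ITGA11 ranged from 4809 bases in Matrigel replicate 2 to 10757 in VNP2 replicate 3. ENST00000315757 held 96.0% of its counts over all libraries. The non-coding transcripts ENST00000562826 and ENST00000569346 together held 22.6 counts in Matrigel replicate 2 and 0 in VNP2 replicate 3, and the average, which is weighted by TPM, was longest in the library where they had no counts.

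**Figure D5:**
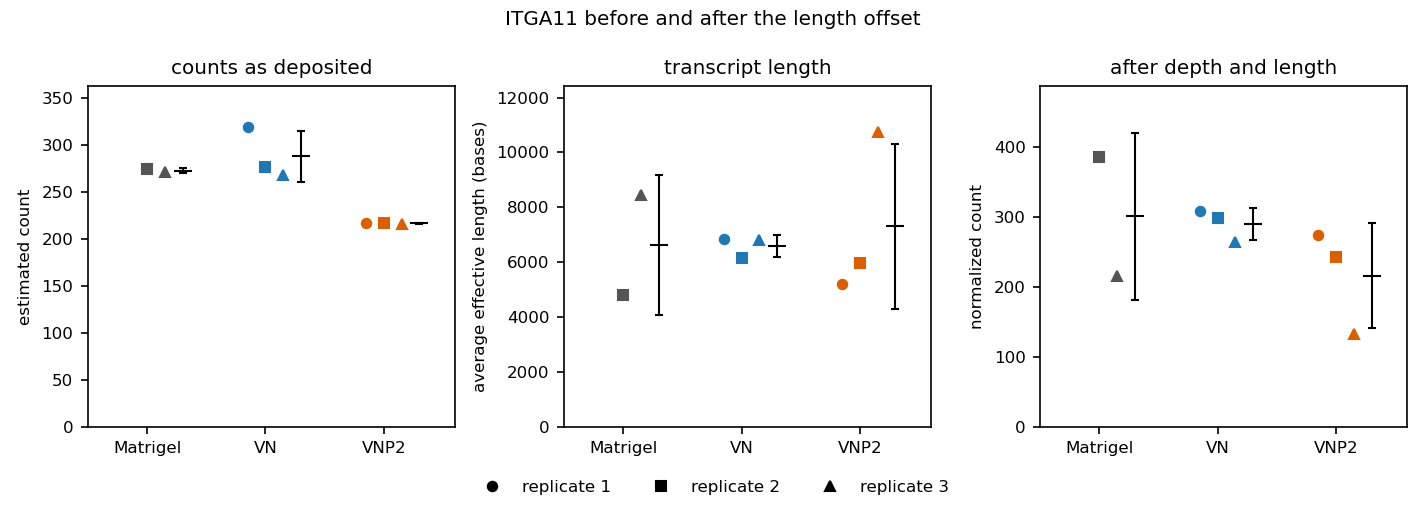
Estimated count, average effective transcript length in bases and normalized count of ITGA11 (vertical axes, from 0) in each library, by substrate, with the mean and SD beside the points. The 3 VNP2 libraries have 216 or 217 estimated counts, below all others, and spread from 132 to 274 once the length of 5216 to 10757 bases is taken into account.

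Of the remaining subunits, ITGA4 showed the largest difference of all 10, and ITGA9 differed between VN and the other substrates. ITGA4 (ENSG00000115232, chr2:181457202-181536187, plus strand) encodes α4, a receptor for fibronectin and VCAM1 that is known from leukocytes and from neural crest cells. Its normalized counts were 1173 and 1256 on Matrigel, compared with 508, 473 and 408 on VN and 246, 252 and 285 on VNP2. The 3 groups did not overlap and fell in this order. Such a lack of overlap was seen against Matrigel for 44.4% of all genes on VN and 48.1% on VNP2. Between VNP2 and VN it was seen for 23.6%. The log2 fold change was −1.39 (SE 0.0951) on VN against Matrigel, 2.63-fold lower (adjusted p = 6.77e-06), and −2.22 (SE 0.0988) on VNP2 against Matrigel, 4.66-fold lower (adjusted p = 2.26e-07). On VNP2 it was 1.77-fold lower than on VN, with a log2 fold change of −0.83 (SE 0.0957, adjusted p = 0.000761).

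The leukocyte markers were near 0, with a sum of 14.0 to 33.9 normalized counts over 6 genes in any library and 39 counts of PTPRC in all. The neural crest and melanocyte markers, 10 of 11 of them with at least 3 counts in total, summed to 10829 to 10836 on Matrigel, 11121 to 11626 on VN and 11384 to 11476 on VNP2. Of the 9 tested, none was called on VN against Matrigel, and 2 were higher and 1 lower on VNP2 against Matrigel. On VNP2 against VN, 1 was higher and 1 lower. Among all genes tested, 15.3% were called on VN against Matrigel, and 7.44% were higher and 9.13% lower on VNP2 against Matrigel. On VNP2 against VN, 3.1% of all genes were higher and 2.01% lower. The part of the neural crest and melanocyte markers in the ITGA4 result was not tested either. The mesenchymal and pluripotency sums given above were highest on Matrigel and lowest on VNP2, as ITGA4 was. However, 6 of the 16 mesenchymal markers were higher and 5 lower on VNP2 than on Matrigel. Of the 7 pluripotency markers, 5 were not called on VN against Matrigel, where their median log2 fold change was 0.30. On VNP2 against Matrigel, 4 of these 7 were lower and 1 was higher, with a median of −0.67. The part of the mesenchymal and pluripotency markers in the ITGA4 result was not tested. FOXD3 had 28 counts and PAX3 had 2 over all libraries.

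ITGA9 (ENSG00000144668, chr3:37452115-37823514, plus strand) encodes α9, the receptor for tenascin-C. It had 895 and 845 normalized counts on Matrigel, followed by 729, 763 and 705 on VN and 962, 997 and 957 on VNP2. All VN libraries were below all Matrigel libraries, which in turn were below all VNP2 libraries. The shares of all genes without overlap were 44.4% on VN and 48.1% on VNP2 against Matrigel, and 23.6% on VNP2 against VN. The log2 fold change was 0.41 (SE 0.0553, adjusted p = 0.00184) on VNP2 against VN, 1.33-fold higher, and −0.25 (SE 0.0619, adjusted p = 0.0224) on VN against Matrigel. It was 0.16 (SE 0.0614, adjusted p = 0.11) on VNP2 against Matrigel, which did not pass the test. The call on VN against Matrigel was lost without either Matrigel library or VN replicate 3 (adjusted p = 0.0653 to 0.184).

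Without VN replicate 1, the library that stood apart, the calls of the subunits were the same. ITGA1, ITGA3, ITGA4, ITGA7 and ITGA9 then had log2 fold changes of −0.73, −1.34, −1.46, −0.31 and −0.24 on VN against Matrigel, with adjusted p-values of at most 0.0315. On VNP2 against VN, the values without this library were 0.33 for ITGA1 (adjusted p = 0.0296), −0.75 for ITGA4 (adjusted p = 0.002) and 0.41 for ITGA9 (adjusted p = 0.00426). ITGB4 no longer passed the low-count filter.

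The genes whose levels ran most closely with those of the called subunits are given as a description. Pearson's r of log2 CPM over the 8 libraries was computed against the 12995 genes whose normalized count averaged 100 or more, and the libraries share 3 substrates. ITGA3 was nearest to FLNC (r = 0.997), which encodes the actin-binding filamin C, to PDLIM7 (0.997) and to EPHA2 (0.996), and FLNC had 5998, 2848 and 2818 mean normalized counts on Matrigel, VN and VNP2. ITGA4 was nearest to CNTN6 (0.994), to RGS5 (0.991), a regulator of G protein signalling known from pericytes, and to ANXA2 (0.99). RGS5 had 4217, 1439.8 and 831 mean normalized counts on the 3 substrates. ITGA1 was nearest to LTBP1 (0.984), which binds latent TGF-β, ITGA7 to EMD (0.986), and ITGA9 to OLFML2B (0.98) and IGF2 (0.973).

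The β1 subunit, partner of 9 of the genes described, was itself lower on both vitronectin substrates. ITGB1 had 33681 and 33938 normalized counts on Matrigel, next to 26124, 27241 and 26546 on VN and 27438, 26457 and 26111 on VNP2. The Matrigel libraries were above all others, where 44.4% of all genes on VN and 48.1% on VNP2 did not overlap with Matrigel. The log2 fold change was −0.34 (SE 0.0329) both on VN (adjusted p = 7.34e-05) and on VNP2 (adjusted p = 5.14e-05), and 0.00 (SE 0.0297, adjusted p = 0.984) between VNP2 and VN. ITGB7, the other partner of α4, had 228 counts over all libraries and passed no test.

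Of 16 other integrin subunits, 10 were tested. On VN 4 were lower and none higher than on Matrigel, on VNP2 3 were lower and 1 was higher, and between VNP2 and VN 2 were higher and none lower. Among all genes tested, 9.6% were lower and 5.66% higher on VN, and 9.13% lower and 7.44% higher on VNP2, than on Matrigel. Between VNP2 and VN, 3.1% were higher and 2.01% lower. ITGA5, the fibronectin receptor α5, had 2735 ± 35.6 normalized counts (SD, n = 2) on Matrigel, compared with 1589 ± 126 (n = 3) on VN and 1549.96 ± 50.7 (n = 3) on VNP2, with log2 fold changes of −0.78 (adjusted p = 2.26e-05) and −0.82 (adjusted p = 1.09e-05) against Matrigel. ITGA8, at 54.1 ± 8.55 normalized counts on Matrigel, followed by 67.3 ± 9.3 on VN and 144 ± 35.2 on VNP2, was higher on VNP2 than on Matrigel (1.41 on the log2 scale, adjusted p = 0.00224) and than on VN (1.10, adjusted p = 0.0111). ITGB5 was lower on VN than on Matrigel (−0.43, adjusted p = 0.00107) and higher on VNP2 than on VN (0.34, adjusted p = 0.00536).

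Ligand genes moved in both directions. Of 11 laminin chains, 10 were tested, of which 3 were lower and none higher on VN, and 3 were lower and 3 higher on VNP2, than on Matrigel. The shares of all genes tested were 9.6% lower and 5.66% higher on VN, and 9.13% lower and 7.44% higher on VNP2. LAMA4 was higher on VNP2 than on VN by 1.04 (adjusted p = 9.15e-05) and LAMC3 higher on VNP2 than on Matrigel by 0.79 (adjusted p = 0.0374). The LAMA4 values used here did not match the deposited ones, with a largest relative difference in a library of 0.173.

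Of 11 chains of integrin-binding collagens, 2 were higher and 3 lower on VN, and 3 were higher and 5 lower on VNP2, than on Matrigel. COL1A1 fell by 1.41 and COL5A1 by 0.82 on VNP2 against Matrigel on the log2 scale (adjusted p = 2.99e-07 and 8.6e-07), whereas COL6A3 was higher by 0.62 (adjusted p = 0.000104). Of the 7 ligands of α4 and α9, 1 was higher and 3 were lower on each of VN and VNP2 than on Matrigel, against the same shares of all genes. TNC, tenascin-C, had 43764 ± 830 normalized counts (SD, n = 2) on Matrigel, compared with 27885 ± 1268 (n = 3) on VN and 23463 ± 947 (n = 3) on VNP2, and was lower on both (adjusted p = 6.79e-06 and 4.62e-07). FN1, fibronectin, was higher on VN than on Matrigel, with a log2 fold change of 0.38 (adjusted p = 9.06e-05). It was lower on VNP2 than on VN (−0.72, adjusted p = 3.53e-06) and than on Matrigel (−0.35, adjusted p = 0.000103). SVEP1 was lower on VN and VNP2 than on Matrigel, with log2 fold changes of −0.72 and −0.83 (adjusted p = 0.000488 and 0.000135).

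Genes for proteins that activate integrins or link their tails to actin were in part lower on both vitronectin substrates. Of 25 such genes, 23 were tested, of which 12 were lower, none was higher and 11 were not called on VN against Matrigel, and the counts were the same on VNP2, with no call between VNP2 and VN. Over all genes tested, 9.6% were lower and 5.66% higher on VN, and 9.13% lower and 7.44% higher on VNP2, than on Matrigel. Between VNP2 and VN, 5.1% of all genes were called. VCL, vinculin, had 16674 ± 49.9 normalized counts (SD, n = 2) on Matrigel, followed by 10796 ± 236 (n = 3) on VN and 10425 ± 292 (n = 3) on VNP2, with log2 fold changes of −0.63 (adjusted p = 1.65e-06) and −0.68 (adjusted p = 6.38e-07). BCAR1 was at −0.77 and −0.54 and LIMS2 at −1.34 and −1.29 on VN and VNP2 against Matrigel, all of them called. The median log2 fold change of the list was −0.25 on VN and −0.28 on VNP2.

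Of 8 membrane partners and hemidesmosome genes, 7 were tested, of which 1 was higher and 3 were lower on VN, and 1 was higher and 1 lower on VNP2, than on Matrigel. As a background against Matrigel, 5.66% of all genes tested rose with VN while 9.6% fell. With VNP2, 7.44% rose while 9.13% fell. DST was among the tested genes of this list and was not called against Matrigel. Its values did not match the deposited ones, with a largest relative difference in a library of 0.212. CD82, a tetraspanin, had 1629 ± 160 normalized counts (SD, n = 2) on Matrigel, compared with 2413 ± 114 (n = 3) on VN and 3109.5 ± 278 (n = 3) on VNP2, and was higher on both (adjusted p = 0.00127 and 2.89e-05). CD151, the tetraspanin that associates with α3 and α6, was lower on VN than on Matrigel, with a log2 fold change of −0.49 (adjusted p = 0.0147), and was at −0.32 (adjusted p = 0.079) on VNP2. CD63 was lower on both, at −0.36 on VN and −0.25 on VNP2 (adjusted p = 8.04e-05 and 0.000778).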

How the data were processed

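RNA of 8 libraries was sequenced paired-end from a stranded, polyA-selected kit. The authors trimmed adapters with Trim Galore and quantified transcripts with Salmon on GENCODE v32 (GRCh38). The estimated counts and the TPM per transcript were deposited as Salmon gave them, and the deposited normalized counts per gene are a signal the authors made with tximport and DESeq2 1.27.12. Whether the strand setting was used is not given in the sources used here. Transcripts were matched by identifier to GENCODE v29 (205225 of 226608, holding 98.8 to 98.9% of counts). Of 11350 genes, 95.0% then equalled the deposited table within 0.1%, as did all 10 subunits, ITGA1 after 1 transcript was added. Gene counts were rounded, filtered with filterByExpr (minimum count 10, minimum total 15) and fitted once over all 8 libraries in edgeR 4.0.16 (R 4.3.3), by the quasi-likelihood test with TMM and offsets for average transcript length, two-sided, with Benjamini-Hochberg adjustment over 18201 genes. Normalized counts come from this fit, SEs from the log2 fold change and its F statistic, and levels per length are summed TPM. Tail shares were compared with an exact permutation test. The scripts were tested on simulated data. Named genes are all 10 subunits, ITGB1, up to 3 called genes per pathway list with the largest log2 fold change in any pair, and the 3 genes nearest to each called subunit, of which some are printed, and 1 gene that this rule names is not reported here. Other named transcripts, exons and markers were chosen after their values were seen. The subunits and lists were chosen with earlier results of these data known. Alternatives were DESeq2 1.42.0, RLE factors, no offsets, no filter, a replicate block, the libraries of the pair only, limma 3.58.1 on the deposited normalized counts (pseudocount 1), each library left out, counts in place of TPM for the tail shares and, added after seeing the data, ITGA1 without the added transcript. A count of 100 has a sampling error of about 1 in 10, and counting error only is covered.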

Additional observations from a re-analysis of the deposited data

How the results depend on the processing

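The number of subunits called was 5 across the substrates and 5, 4 and 3 in the pairs, with all calls on VN or VNP2 against Matrigel in the lower direction. Across the substrates it was 6 without length offsets and 4 to 5 with single libraries left out. On VN against Matrigel it was 3 when only the libraries of that pair were fitted, and between 3 and 5 when single libraries were left out, with 3 without Matrigel replicate 2, Matrigel replicate 3 or VN replicate 3. ITGA7 and ITGA9 were the calls lost in the fit of the pair alone (adjusted p = 0.0553 and 0.0606). No log2 fold change that was called changed sign in any alternative. ITGA3 and ITGA4 passed against Matrigel in all of them. DESeq2, RLE factors, no filter and limma on the deposited table changed no call of a subunit, although DESeq2 gave no adjusted p to ITGB4 or ITGA10 in some pairs. Without length offsets, ITGA11 was called on VNP2 against Matrigel (−0.38) and against VN (−0.43). Same-numbered libraries had correlations of −0.112 to 0.14 between their deviations from the group means, and differently numbered ones −0.17 to 0.177. With 2 or 3 libraries in a group these deviations depend on each other, so whether the numbers pair the libraries cannot be decided. With a replicate block the calls of the subunits were unchanged at 5, 4 and 3, and genes called were 3389, 3170 and 1147 in place of 2778, 3016 and 929. Genes called on VN against Matrigel numbered 1182 to 3899 over the fits with 1 library left out, on VNP2 against Matrigel 1613 to 3608, between VNP2 and VN 547 to 1997, with the lowest counts against Matrigel when a Matrigel library was left out and the highest without VN replicate 1. The difference in the ITGA6 A form between the mean of VN and VNP2 and Matrigel was −4.93 percentage points, and −1.92 to −7.95 with 1 library left out. With 2 Matrigel libraries the spread on that substrate is the least certain, and ITGA10 and ITGB4 are limited by depth.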
